A study of Mus musculus with 36 samples.

Results

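The collagen and laminin chain genes were the 54 protein-coding genes of the GENCODE M1 annotation of mm9 whose symbol reads Col, a number, a, a number, or begins with Lama, Lamb or Lamc and a digit. They comprised 43 collagen genes and 11 laminin genes, out of 22350 protein-coding genes on chromosomes 1 to 19 and X. PAX6 binding regions had been mapped by ChIP-seq in enteric precursor cells (EPCs), cultured as neurosphere-like bodies (NLBs) from the ganglionic gut of CD1 mice aged 7 days (P7). The 3 pools of anti-PAX6 ChIP libraries (4, 6 and 6 libraries), their 16 input libraries and 4 IgG control libraries of pool 1 came from the same kind of culture. All carried the same strain, age and tissue labels, and the labels named no treatment or engineered allele for any group. Peaks had been called on the merged libraries of each group, so every pool gave 1 list of peaks and IgG gave 1 list. The pools were therefore the only replicates, and the spread between the libraries of a pool is unknown. The labels did not say how many animals went into a library. EPC identity could not be checked against marker genes, since no expression was measured in these libraries.

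Laminins are heterotrimers of an alpha, a beta and a gamma chain that polymerise on the cell surface and start the assembly of a basement membrane. Collagen IV, built from 3 of its alpha chains, forms the covalent network that holds this sheet together. The fibrillar collagens form the fibres of the surrounding stroma, and the FACIT collagens decorate those fibres. In the developing gut, enteric neural crest cells migrate through a matrix that contains laminins and collagens, and collagen VI and XVIII are known to influence that migration. PAX6 is a transcription factor with a paired domain and a homeodomain that bind DNA.

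Each peak whose centre fell in the body of a member gene, or within 100 kb of it, was assigned to that gene. Across the 3 pools, 18 of 2219 PAX6 peaks were assigned to 16 of the 54 genes. Of the 1006 IgG peaks, 7 were assigned to 7 genes. The genes with PAX6 peaks were all 6 collagen IV genes (Col4a1 to Col4a6), both multiplexins (Col15a1 and Col18a1), Col6a3, Col7a1, Col13a1, Col16a1, Col17a1, Lama1, Lama3 and Lamb3. No member had peaks of all 3 pools, and 5 had peaks of 2 pools (Col4a1, Col4a2, Col15a1, Col18a1 and Lama1). Of these, Col4a1 and Col4a2 were counted through the same 2 peaks. The share of all protein-coding genes with peaks of 2 pools is not given here, so the count of 5 has no baseline.

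The sequences below were read from the mm9 genome, on its forward strand, at some of the peaks to which the results return. They show the longest uninterrupted CA or TG repeat of each peak in capitals. Such a repeat of at least 20 bp was held by 7 of the 8 PAX6 peaks inside member genes. For the 18 PAX6 peaks at members as a whole the share was 50.0%, against 55.2% of the other PAX6 peaks. The exception among those 8 was the intronic peak of Col15a1, where interrupted CA repeats surround a longest tract of 15 bp. The Col24a1 peak is shown as the IgG peak at a member with the longest repeat.
Col4a4 intron, pool 3, peak nearer the start of the gene, chr1:82561195-82561262: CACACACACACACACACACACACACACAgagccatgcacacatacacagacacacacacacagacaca
Col4a5 intron, pool 1, chrX:137934828-137934945: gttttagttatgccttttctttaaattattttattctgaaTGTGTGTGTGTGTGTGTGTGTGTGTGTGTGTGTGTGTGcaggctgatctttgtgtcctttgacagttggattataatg
Col15a1 intron, pool 3, chr4:47319039-47319133: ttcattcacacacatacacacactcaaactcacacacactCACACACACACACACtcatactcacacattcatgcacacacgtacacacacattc
Lama1 intron, pool 2, chr17:68072196-68072310: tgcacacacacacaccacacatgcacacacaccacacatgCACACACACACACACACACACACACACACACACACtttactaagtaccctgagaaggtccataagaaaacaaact
Col24a1 intron, IgG, chr3:145126692-145126821: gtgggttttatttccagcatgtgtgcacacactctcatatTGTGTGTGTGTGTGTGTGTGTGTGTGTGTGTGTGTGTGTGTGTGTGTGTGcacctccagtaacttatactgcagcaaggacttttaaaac

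The Col4a4, Col4a5 and Lama1 stretches each held 1 uninterrupted tract of 20 bp or more, of 28, 38 and 35 bp in that order. The longest tract of the intronic Col15a1 peak was 15 bp. The intronic IgG peak of Col24a1 held a TG tract of 50 bp, longer than those in the PAX6 peaks of member genes (at most 47 bp).

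**Figure D1:**
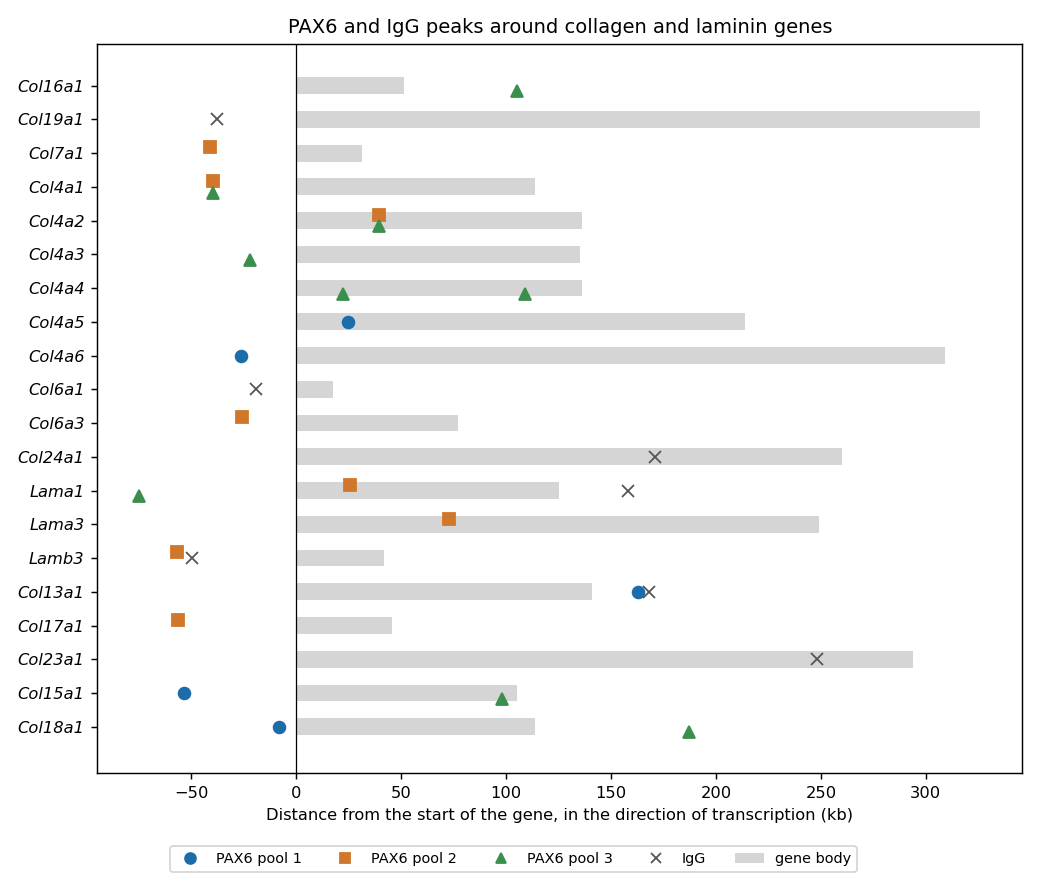
Positions of PAX6 and IgG peaks around the 20 collagen and laminin genes that had any, as distance in kb from the start of the gene in the direction of transcription. Grey bars are gene bodies and symbols are peaks of the 3 pools and of IgG, with the symbols of pools 2 and 3 shifted up and down for legibility; the peaks of pools 2 and 3 in Col4a2 lie at the same place, 39.5 kb from the start of Col4a1 and Col4a2.

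Gene length had to be allowed for, because these genes are long. The median gene body was 111 kb for the members, from 7.11 kb (Col10a1) to 636 kb (Lama2), against 15.4 kb for the other protein-coding genes. Their windows merged into 45 intervals that covered 15.8 Mb, or 0.619% of the non-gap sequence. The number of peaks to expect was computed from these lengths, for uniform placement of each peak on its own chromosome. Pool 1 gave 4 peaks of 489 in the windows where 3.01 were expected, a ratio of 1.33 (exact Poisson 95% interval of the count, 0.362 to 3.4). Pool 2 gave 7 of 1018 where 6.52 were expected, a ratio of 1.07 (0.432 to 2.21). Pool 3 gave 7 of 712 where 4.69 were expected, a ratio of 1.49 (0.6 to 3.08). All 3 pools lay above 1, and each interval included 1. Taken over the pools, 18 peaks stood against 14.2 expected, a ratio of 1.27 (0.75 to 2.0), and IgG gave 7 against 6.63, a ratio of 1.06 (0.424 to 2.17). The ratio over the windows of all protein-coding genes was 1.02 for the PAX6 peaks and 1.02 for IgG.

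The mean ratio of the 3 pools was 1.3 ± 0.211 (SD, n = 3), which exceeded the IgG ratio by 0.242. The direction depended on the window and on the collagen IV genes. The differences were 0.599 for gene bodies alone, 0.749 at 10 kb, -0.249 at 50 kb and -0.227 at 200 kb. Without the collagen IV genes (chosen after the data were seen) the difference was -0.144. For gene bodies and at 10 kb, only 2 IgG peaks entered. The exact permutation test over the 4 lists gave p = 0.5 (two-sided), and 0.25 is the smallest value that 3 lists against 1 allow, so this test could not have passed a threshold of 0.05. The share of peaks in the windows was 0.811% for PAX6 and 0.696% for IgG, a difference of 0.115 percentage points (95% interval -0.676 to 0.704). This interval includes 0, and it covers counting error only, as do the Poisson intervals.

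**Figure D2:**
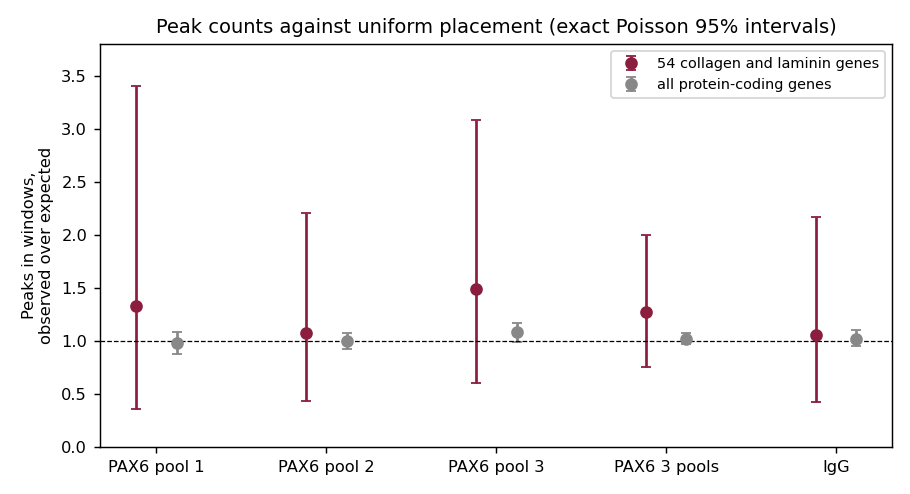
Peaks in the windows over the number expected from window length, for each list of peaks (points, ratio; bars, exact Poisson 95% interval of the count; dashed line, ratio of 1). The PAX6 pools lie at 1.33, 1.07 and 1.49 and IgG at 1.06 for the 54 genes, and every interval of the 54 genes includes 1.

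Counted by gene, pool 1 had a peak at 5 of the 54 members (9.26%), against 4.25% of all protein-coding genes and 3.16 members expected from window length. Pool 2 had a peak at 8 members (14.8%), against 8.08% of all protein-coding genes and 6.66 members expected. Pool 3 also had a peak at 8 members, against 6.84% of all protein-coding genes and 4.84 members expected. The pools together reached 16 members (29.6%), where 17.5% of all protein-coding genes had a PAX6 peak and 13.3 members were expected. IgG reached 7 members (13%), where 8.63% of all protein-coding genes had an IgG peak and 6.74 members were expected. The members thus exceeded the share of all genes in every list, IgG included, and stood closer to the number expected from their length. Peaks of PAX6 and IgG were both found at Col13a1, Lama1 and Lamb3, and IgG peaks alone at Col6a1, Col19a1, Col23a1 and Col24a1. The other 34 members had no peak in any list.

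The peaks were unevenly spread over the kinds of chain. The 6 collagen IV genes had 5 PAX6 peaks against 1.09 expected, a ratio of 4.6 (exact Poisson 95% interval, 1.49 to 10.7), and no IgG peak against 0.52 expected. The 2 multiplexins had 4 PAX6 peaks against 0.605 expected, a ratio of 6.61 (1.8 to 16.9), and no IgG peak against 0.283 expected. At the other end, the 11 fibrillar collagen genes, which include Col1a1, Col1a2 and Col3a1, had no PAX6 peak against 2.73 expected, with an upper bound of 1.35 on the ratio. Their only peak was the IgG peak in Col24a1. The 12 classes were compared with results of these data known, and the intervals were not adjusted for their number. Of the 5 collagen IV peaks, 2 were the overlapping peaks of pools 2 and 3 in Col4a2, so the interval treats 1 region as 2 independent placements. Col4a2 was also among the PAX6 target genes that the authors reported from these data, so the collagen IV ratio is no independent evidence. With 0.52 and 0.283 peaks expected, the absence of IgG peaks at these genes carries little information, since the upper bounds of the IgG ratios were 7.1 and 13.

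**Figure D3:**
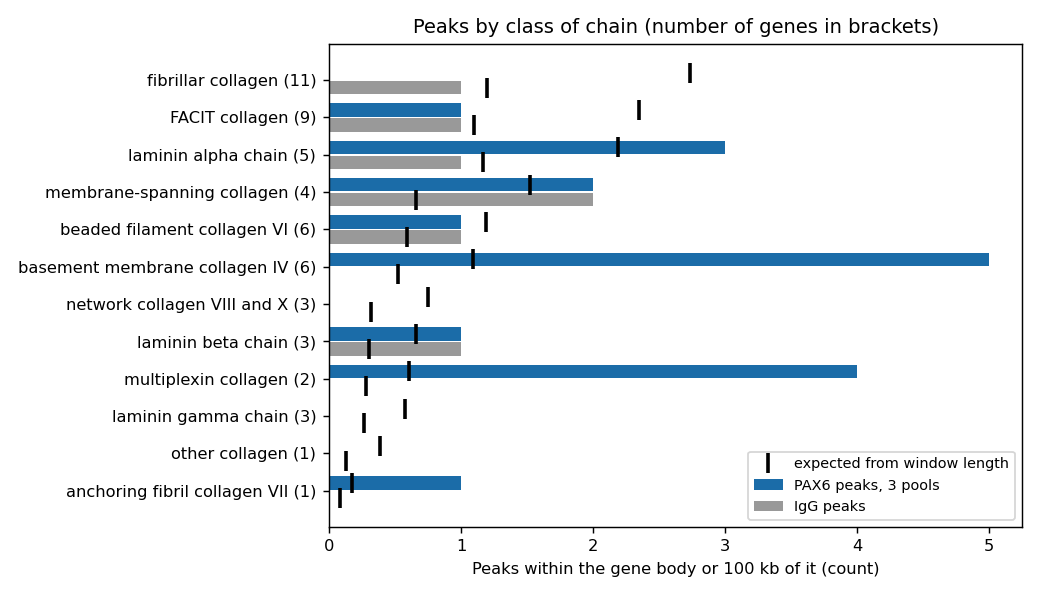
PAX6 peaks of the 3 pools (blue bars) and IgG peaks (grey bars) in the windows of each class of collagen or laminin chain, with the number expected from window length (black marks). Collagen IV (5 PAX6 peaks, 1.09 expected) and the multiplexins (4, 0.605 expected) exceed their marks, and the fibrillar collagens have 0 PAX6 peaks with 2.73 expected.

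The collagen IV genes lie in head-to-head pairs, so that a peak near a shared start counts for both partners. Col4a1 and Col4a2, which encode the chains found in nearly all basement membranes, overlap by 22 bp at their starts on chromosome 8. Col4a3 and Col4a4 are separated by 71 bp on chromosome 1, and Col4a5 and Col4a6 by 1308 bp on chromosome X. Col4a3, Col4a4 and Col4a5 encode the chains of the mature glomerular basement membrane. That all 6 genes had a peak, where 1.34 were expected, therefore rests on 5 peaks in 3 loci, and every one of these peaks lay in an intron of 1 gene of the pair.

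Col4a2 (chr8:11312805-11449287, plus strand) held the peaks that the pools shared. The pool 2 peak ran from 11352054 to 11352549 with a score of 77.71, rank 358 of 1032 and percentile 65.3 of its list. The pool 3 peak ran from 11352194 to 11352549 with a score of 77.53, rank 489 of 724 and percentile 32.5. Pool 1 had no peak there, and IgG had none within 643 kb. This was the only overlap between pools at a collagen or laminin gene, among 25 overlapping pairs of peaks of different pools in the genome. The peaks lay in an intron, 39.5 kb from the start of Col4a1, and ended at the same base. Their longest uninterrupted repeats were 25 bp in pool 2 and 24 bp in pool 3.

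Col4a4 (chr1:82447298-82583424, minus strand) had 2 intronic peaks, both of pool 3. The first, at chr1:82561195-82561403, lay 22.1 kb from the start of Col4a4 and 22.2 kb upstream of Col4a3, with a score of 113.76 and percentile 60.9. The second, at chr1:82473971-82474705, lay 109.0 kb into Col4a4, with a score of 71.36 and percentile 30.2, and was 109.0 kb from Col4a3, outside its window. Each held a repeat of 28 bp. Col4a5 (chrX:137909928-138123778, plus strand) had a pool 1 peak in an intron at chrX:137934548-137935001, 24.8 kb from its start and 26.2 kb upstream of Col4a6. Its score was 64.01, at percentile 57.5 of pool 1. Of these 3 loci, pool 1 thus had a peak in 1, pool 2 in 1 and pool 3 in 2.

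The multiplexins Col15a1 and Col18a1 encode basement membrane collagens that carry the endostatin domain at the C-terminus. Both had a peak of pool 1 and a peak of pool 3, at different places. At Col15a1 (chr4:47221033-47326039, plus strand), the pool 1 peak at chr4:47167324-47167636 lay 53.6 kb upstream, with a score of 80.89 at rank 33 of 491, the highest percentile (91.4) of any PAX6 peak at a member. The pool 3 peak at chr4:47318902-47319301 lay in an intron 98.1 kb into the gene, 2.51 kb from the start site of a shorter Col15a1 transcript, with a score of 117.6 and percentile 66.6. It was the nearest peak to a start site of any member. At Col18a1 (chr10:76514923-76629293, minus strand), the pool 1 peak at chr10:76637372-76637900 lay 8.34 kb upstream with a score of 59.63 and percentile 41.1. The pool 3 peak at chr10:76442082-76442640 lay 72.6 kb beyond the end of the gene, nearer to the start of Pcbp3 (17729 bp away), with a score of 107.53 and percentile 53.8. The peaks of the pools were 152 kb apart at Col15a1 and 195 kb apart at Col18a1, so the pools had peaks in the same gene window but shared no region. None of these 4 peaks held a repeat of 20 bp.

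Of the remaining collagens, Col13a1 and Col17a1 encode membrane-spanning collagens, of which Col17a1 is a component of hemidesmosomes. The class had 2 PAX6 peaks against 1.52 expected and 2 IgG peaks against 0.66. The pool 1 peak 22.5 kb beyond the end of Col13a1, with a score of 67.23 and percentile 69.6, lay 4.24 kb from an IgG peak with a score of 82.13 at percentile 81.9 of its list. The pool 2 peak assigned to Col17a1 lay 56.3 kb upstream, in an intron of Wdr96, with a score of 65.68 and percentile 31.6. Col7a1, which encodes the collagen of anchoring fibrils, had a pool 2 peak 41.1 kb upstream, with a score of 64.6 and percentile 28.4, that was nearest to Tmem89. Col6a3, which encodes a chain of the beaded filaments of collagen VI, had a pool 2 peak 26.0 kb upstream with a score of 63.82, percentile 26.6 and a repeat of 47 bp. Col16a1, of the FACIT class, had a pool 3 peak 53.6 kb downstream, nearest to Hcrtr1, with a score of 51.3 at rank 714 of 724. The FACIT class as a whole had 1 PAX6 peak against 2.35 expected, and the collagen VI genes 1 against 1.19.

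The laminin genes together had 4 PAX6 peaks against 3.43 expected, a ratio of 1.17 (0.317 to 2.98), and 2 IgG peaks against 1.74. Pool 1 had none of them, pool 2 had 3 and pool 3 had 1. The alpha chain genes had 3 against 2.19, the beta chain genes 1 against 0.662, and the gamma chain genes none against 0.579. Lama1, whose chain belongs to the laminin of early embryonic basement membranes, had a pool 2 peak in an intron at chr17:68071958-68072330, 25.5 kb from its start, with a score of 58.44 and percentile 7.17. A pool 3 peak at chr17:67971550-67972072 lay 74.8 kb upstream, nearer to Lrrc30, with a score of 58.65 and percentile 12.7. An IgG peak lay 32.3 kb downstream of Lama1, with a score of 56.26.

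Lama3, which encodes the alpha chain of the laminin of epithelial anchoring complexes, had a pool 2 peak in an intron 72.7 kb from its start on chromosome 18, with a score of 55.36 and percentile 4.7. Lamb3, which encodes the beta chain of that same laminin, had a pool 2 peak 56.9 kb upstream in an intron of Hsd11b1, with a score of 64.18 and percentile 27.8. An IgG peak of score 79.98 lay 7.16 kb from it, at percentile 79.0 of its list. Lama2, Lama4, Lama5, Lamb1 and Lamb2, which include alpha and beta chains of widespread laminins of adult tissue, had no peak in any list. The PAX6 peaks expected were 0.942 for Lama2 and 0.201 to 0.389 for each of the others. With so few expected, the absence does not set these genes apart.

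Over all 18 PAX6 peaks at member genes, 10 lay in introns and 8 between genes, with none in a coding exon or untranslated region. Of these, 8 lay in the body of a member and 2 in that of another protein-coding gene. For 11 of the 18, the nearest protein-coding start site was that of a member, against 3 of the 7 IgG peaks. Only 4 lay within 10 kb of any protein-coding start site. Among all 2219 PAX6 peaks, 796 lay in a protein-coding gene body and 1423 outside. The other placements of all peaks are not given here. Since the 18 were chosen for lying in or near long member genes, their place in introns and near member starts is partly built in. None of the 18 overlapped an IgG peak. Leaving out every PAX6 peak that does kept all 18 and moved the ratio of observed to expected only from 1.27 to 1.31. Such overlap was thus uncommon among all PAX6 peaks too, and its absence does not set the members apart. Of the 18, 2 (11.1%), those at Col13a1 and Lamb3, had the centre of an IgG peak within 10 kb, against 4.87% of all PAX6 peaks. The cause of this proximity was not tested.

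The position of the member peaks within their lists differed between pools. Their scores were below 70 in 11 of 18, and reached 100 in 3, which were all of pool 3 (Col15a1, Col18a1 and Col4a4). The median score of all peaks was 62.05 in pool 1, 68.98 in pool 2 and 105.61 in pool 3. These counts thus depend on the list from which a peak came and do not set the members apart. The score is 10 times the negative log10 of the MACS p-value and depends on depth. The member peaks of different lists were therefore compared by their percentile within a list. Raw scores, as printed for most related genes and used for the score limits, are not comparable between lists. The median percentile was 63.5 in pool 1 (n = 4), 27.8 in pool 2 (n = 7), 32.5 in pool 3 (n = 7) and 61.5 for IgG (n = 7), where 50 is the middle of a list. Over the 3 pools it was 32.1, and it was 53.8 without pool 2. In pool 2, 6 of the 7 peaks lay below the middle, and only the Col4a2 peak lay above it. In pool 1, 3 of the 4 lay above it.

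**Figure D4:**
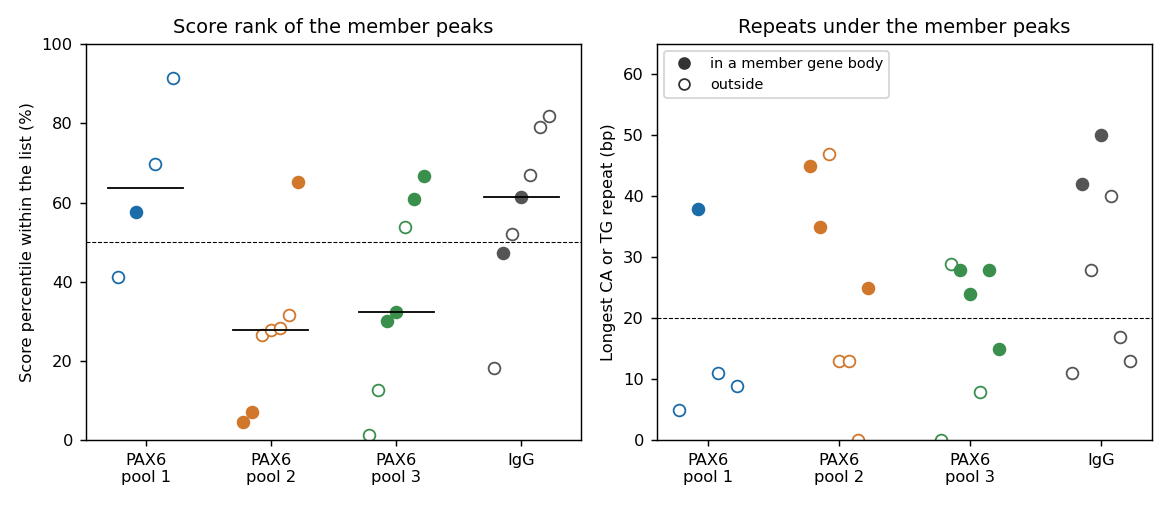
Left, percentile of the score within its own list for each peak at a collagen or laminin gene (line, median; dashed line, the middle of a list, 50). Right, longest uninterrupted CA or TG repeat in each peak in bp (dashed line, 20 bp). Filled points lie in the body of a member; 7 of the 8 filled PAX6 points are above 20 bp, and so are both filled IgG points.

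An uninterrupted CA or TG tract of 20 bp or more was present in 9 of the 18 PAX6 peaks (50.0%, Wilson 95% interval 29.0 to 71.0), against 55.2% of the other PAX6 peaks (53.1 to 57.3). It was present in 4 of the 7 IgG peaks (57.1%), against 62.7% of the other IgG peaks. Stretches of 455 bp placed every 50 kb along the genome held such a repeat in 4.24%. The repeats were thus far more frequent in peaks of either antibody than in the genome, and no more frequent at the members than at other peaks. Within the gene set the repeats were unevenly placed. They were found in 7 of the 8 PAX6 peaks inside member bodies (87.5%, 52.9 to 97.8) and in 2 of the 10 outside (20.0%, 5.67 to 51.0). The 7 of 8, like the 9 of 18, include both overlapping Col4a2 peaks of pools 2 and 3. Their intervals thus treat 1 region as 2 independent peaks. Among all PAX6 peaks, those inside protein-coding gene bodies held a repeat in 56.8% and those outside in 54.3%. The split by position was noticed after the data were seen and was not tested. Both IgG peaks inside member bodies also held a repeat.

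The sequence TTCACGC, taken as the core of the consensus bound by the paired domain of PAX6 and searched on both strands, was found in 0 of the 18 PAX6 peaks, which allows a share of up to 16.7% when a count of 0 is taken to allow up to 3 counts. It was also in none of the 7 IgG peaks. It was present in 0.5% of the other PAX6 peaks, 0.801% of the other IgG peaks and 0.679% of the genomic stretches of 455 bp. At such low shares, no match among 18 peaks does not set the members apart.

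The genes that act on collagens and laminins were examined in the same way, with 65 genes in 5 lists. Overall 15 of the 65 had a PAX6 peak, where 14 were expected, and 7 had an IgG peak, where 6.8 were expected. Of the 15 receptor genes 4 had a PAX6 peak (3.3 expected), among them Itga3, the integrin subunit that pairs with beta 1 to bind laminins, with a pool 3 peak in an intron of score 58.65. Of the 14 genes of other basement membrane proteins 4 had one (3.39 expected). Npnt, which encodes an integrin ligand, had an intronic peak of pool 2 with a score of 63.77. Fras1 had an intronic peak of pool 1 at chr5:96835848-96836377, with a score of 71.59 and percentile 79.3. An IgG peak lay within 10 kb of it, at chr5:96831094-96831498, with a score of 80.63 and percentile 80.6 of its own list. Sparc, which encodes a collagen-binding protein, had a peak of pool 1 (35.3 kb away, score 60.34) and a peak of pool 3 (56.4 kb away, score 159.13).

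Of the 24 genes of collagen synthesis and crosslinking 6 had a PAX6 peak (4.83 expected). Tll2, which encodes a protease of the tolloid family, had a pool 2 peak in an intron with a score of 83.0. Pcolce, the enhancer of procollagen C-proteinase, had a pool 2 peak 57.4 kb away (score 70.26) and a pool 3 peak 74.5 kb away (score 224.76). Of the 6 matrix degradation genes 1 had a PAX6 peak (1.04 expected), and of the 6 netrin genes, whose products share domains with laminins, none had (1.48 expected). Each list stood within 1.5 genes of its expected number.

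Few PAX6 peaks lay near the distance limit. The farthest PAX6 peaks inside it lay 74.8 kb (Lama1, pool 3) and 72.6 kb (Col18a1, pool 3) from the gene body. The nearest PAX6 peaks outside were the peak in the Itga3 intron named above, 107 kb from Col1a1, a second pool 3 peak in Col4a4 109 kb from Col4a3, a pool 2 peak 119 kb from Lamb3 and a pool 3 peak of score 138.11 at 121 kb from Col6a3. No PAX6 peak assigned to a member thus lay between 74.8 and 100 kb from it.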

How the data were processed

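PAX6 ChIP, input and IgG libraries were sequenced from NLB cultures. The authors mapped the reads with Bowtie on mm9 and ran MACS after merging the libraries pool by pool (no version given in the sources used here). The score the authors deposited for a peak is 10 times the negative log10 of its MACS p-value, with 50.04 as the lowest. Peak lists alone were analysed, and they hold no read counts, so the depth behind each list, and the precision it gives to a single peak, is unknown here.

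Peaks on chromosomes 1 to 19 and X were assigned by their centre to GENCODE M1 protein-coding genes within 100 kb. Expected numbers were computed from non-gap window lengths with no random draws, and the count was checked on simulated data. Intervals are exact Poisson intervals for counts, Wilson intervals for shares (for a motif share of 0, the limit that 3 counts give) and the Newcombe interval for the difference of shares, at 95%. The only test was an exact permutation test over the 4 lists. Repeats and the motif were read from the mm9 sequence; some sequences and genes are not reported here.

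The members, the 12 classes and the 5 lists of related genes were chosen with earlier results of these data known. Named were members with a PAX6 peak in the body, with peaks of 2 pools or in regions shared between pools, the 3 member peaks of highest percentile in each pool, and members whose IgG peak overlapped a PAX6 peak. Other members with a PAX6 peak were named after their values were seen. Of the related genes, those with a PAX6 peak in the body or in 2 pools were named. Alternatives covered the distance limit, the space for placement, score limits, peaks that overlap an IgG peak, peaks with repeats and each pool left out. They also covered the collagen IV genes, overlapping peaks counted once, the overlap that counts as shared and the repeat length. Computations used Python 3.11.15, numpy 2.4.6, pandas 2.3.3, scipy 1.17.1, statsmodels 0.14.6, pysam 0.24.0 and matplotlib 3.10.9.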

Additional observations from a re-analysis of the deposited data

How the results depend on the processing

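The ratio of observed to expected PAX6 peaks was 1.27, and 1.2 over 17 peaks when overlapping peaks of different pools were counted once (an unplanned setting). It was 1.04 with a limit of 200 kb, 1.05 at a score of 70 or more, 0.941 at a score of 100 or more and 0.989 without the collagen IV genes, an alternative chosen after the data were seen. The IgG ratio was 0.0 at a score of 100 or more. The difference between PAX6 and IgG, 0.242, reversed to -0.249 with a limit of 50 kb, -0.227 with a limit of 200 kb and -0.144 without the collagen IV genes. It was 0.599 with the gene body alone and 0.749 with a limit of 10 kb. The IgG ratios there, 0.715 and 0.62, rested on 2 IgG peaks each. At a score of 100 or more the difference was 0.405, but the 3 PAX6 peaks left were all of pool 3 and no IgG peak was left. The differences use the mean ratio of the 3 pools, whereas the PAX6 ratios take the peaks of the pools together. Leaving out each pool gave ratios of 1.15 to 1.43 and differences of 0.145 to 0.354.

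The 16 members with a PAX6 peak became 6 with the gene body alone, 7 with a limit of 10 kb, 6 at a score of 70 or more, 4 at 100 or more, 7 without peaks that hold a repeat and 10 without the collagen IV genes. The 7 members with an IgG peak became 2, 2, 2, 0 and 3 under the first 5 of these settings. Leaving out pools gave 11 to 13 members with a PAX6 peak. Fewer peaks or members entered each of these counts. The number of members expected and the share of all protein-coding genes at these settings are not given here, so these counts have no baseline.

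The region shared in Col4a2 was lost (0 regions) at a score of 100 or more, without peaks that hold a repeat and without Col4a1 and Col4a2. Leaving out pools left 0 to 1 shared regions, with the loss when pool 2 or pool 3 was left out. The share of PAX6 peaks with a repeat, 50.0%, was 87.5% within gene bodies and 77.8% with a limit of 10 kb. It was 66.7% for a repeat of at least 12 bp, 22.2% for at least 30 bp, and 45.5 to 57.1% without single pools. The median score percentile, 32.1, was 29.3 to 53.8 without single pools, the highest without pool 2. Where no construction is named, the cause was not tested. No paired analysis was possible because the libraries of each pool were merged into 1 list and only pool 1 has an IgG list of its own, which leaves a single pair.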
